A study of Mus musculus with 16 samples.

Results

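38 genes of the cell cycle and of proliferation are described here through the 5-hydroxymethylcytosine (5hmC) mark on their DNA. Every region of the deposited table that is assigned to 1 of these genes by its nearest transcript was taken, which gave 360 of 177720 regions on 36 of the 38 genes, out of 15543 genes with a region. By role, 12 cyclins and kinases had 129 regions, 3 inhibitors 18, 6 regulators of the G1/S step 124, 7 replication genes 37 and 8 mitosis genes 52. No region was assigned to Cdkn2a, which encodes the inhibitors p16 and p19Arf, or to Pcna, the sliding clamp of DNA polymerase. The number of regions per gene ran from 1 for Mcm7 and Bub1 to 57 for Cdk6. Bub1, a spindle checkpoint kinase, had 1 region of 223 bp with 55 pull-down reads in all and was too shallow to test, so that 35 genes and 302 regions were tested.

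Cyclins bind cyclin-dependent kinases and switch them on at set points of the cycle. D cyclins with Cdk4 and Cdk6 act in G1, E cyclins with Cdk2 at the entry into S phase, and A and B cyclins with Cdk1 on the way to mitosis. The Rb1 protein holds back E2F factors until it is phosphorylated, and the inhibitors p21 (Cdkn1a), p27 (Cdkn1b) and p18 (Cdkn2c) hold back the kinases. 5hmC is made from 5-methylcytosine by TET enzymes, is an intermediate of DNA demethylation, and is often found over enhancers and the bodies of transcribed genes. Naive T cells rest until they are activated, and T cells that are differentiated into induced regulatory T cells divide in culture.

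The study mapped 5hmC in mouse CD4 T cells by CMS-IP, in which sodium bisulfite converts the mark into an adduct, CMS, that an antiserum against it can pull down. The mice, aged 5 to 6 weeks, were Foxp3-eGFP reporter mice on C57BL/6, and their spleen and lymph nodes gave all cells used. The labels name no other allele, and eGFP marks cells that express Foxp3, the lineage factor of regulatory T cells. By the sort gates, naive cells lacked eGFP and CD25 and were CD62L high and CD44 low, Treg carried eGFP, and both were CD4+. Induced Treg (iTreg) were differentiated from naive CD4+ cells with TGFβ alone, or with TGFβ plus vitamin C (VitC) and retinoic acid (RA). RA and VitC were given together, so their effects cannot be told apart. Whether iTreg were sorted for eGFP afterwards, how many days they were cultured and how many mice went into a library are not stated in the labels used here. Of the 16 libraries each group has 4, a pull-down and an input for each of 2 replicates. Nothing in the labels says that replicates are separate mice or cultures, so a p-value here reflects only library-to-library spread, possibly technical.

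Values are counts scaled to library size (CPM), so they are relative within each library, and the total of 5hmC per cell is unknown. A higher value can come from more cells with the mark or from more mark per cell, and these cannot be told apart. Pull-down libraries held 7664194 to 9731897 reads in the sorted groups, 1648804 and 2114056 in TGFβ iTreg, and 3996442 and 3828487 in RA+VitC iTreg. A locus with no read could still stand at up to 3 reads at 95% confidence, which is 1.79 and 1.45 CPM in the TGFβ iTreg libraries and 0.297 to 0.376 CPM in the sorted ones. The 38 genes took 0.303% to 0.305% of the naive pull-down reads, 0.309% and 0.320% in Treg, 0.323% and 0.325% in TGFβ iTreg, and 0.344% and 0.334% in RA+VitC iTreg, against 0.259% to 0.272% of the input reads. Summed over 6 Treg marker genes, all with a region, the signal was 796 and 781 CPM in naive cells, 2144 and 2157 in Treg, 2539 and 2868 in TGFβ iTreg and 3203 and 3073 in RA+VitC iTreg. The sum over 5 CD4 T cell markers (Cd4, Cd3e, Cd3g, Cd3d and Lck) was 703 and 682 CPM in naive cells, 556 and 585 in Treg, 357 and 468 in TGFβ iTreg, and 496 and 502 in RA+VitC iTreg, with all 5 called lower in both iTreg groups. The sum over 6 B cell markers was 130.2 to 162 CPM across all pull-downs, and that over 6 myeloid markers 202 to 303 CPM. The sum over 5 of 6 CD8 and NK cell markers, of which Ncr1 had no region, was 312 to 357 CPM in the sorted groups and 181 to 202 in iTreg. Within these lists members went both ways. Of the 6 B cell markers 3 were called higher and 1 lower in TGFβ iTreg, and 2 and 1 in RA+VitC iTreg. Of 5 myeloid markers tested, 2 were higher and 1 lower in each. Of all genes, 23.4% were higher and 18.1% lower in TGFβ iTreg, and 29.2% and 26.6% in RA+VitC iTreg. Pax5 stood at 3.87-fold and 3.02-fold of naive cells in TGFβ iTreg and RA+VitC iTreg, and Adgre1 at 2.86-fold and 4.63-fold. Cd79a stood at 0.63-fold and 0.83-fold, and Itgam at 0.75-fold and 0.51-fold. The part of other cells in the results below was not tested.

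The promoters of these genes are rich in CpG, the dinucleotide whose cytosine can carry the mark. RefSeq (GRCm38.p6) windows from 250 bases before to 50 bases after the start were found for 30 of the 38 genes, 37 windows in all. The 250 bases before the start held a median of 19 CpG, against 6 over the 32851 windows of all genes. The letters TTTCCCGC or TTTGGCGC of the E2F motif, on either strand, were in 10 of the 37 windows (27.0%, against 1.56% of all windows). By role these were 5 of 8 replication windows, 3 of 6 G1/S windows and 0 of 7 mitosis windows. TTTGAA, the core of the CHR motif of mitosis genes, was in 10 of the 37 windows (27.0%, against 17.9%), 5 of them among the 7 of mitosis genes. CCAAT was in 25 (67.6%, against 37.4%). A match of letters is a description and no binding site.

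Stretches of 250 bases before the start show how these promoters differ. They are printed 5′ to 3′ in the direction of the gene with CpG in capitals. Cdkn1b (chr6:134920151-134920400, plus strand) has 28 CpG in these bases, Mki67 (chr7:135716380-135716629, minus strand) 24, Cdc6 (chr11:98907901-98908150, plus strand) 18, with the E2F letters as gcgggaaa, and Top2a (chr11:99024190-99024439, minus strand) 9.
Cdkn1b: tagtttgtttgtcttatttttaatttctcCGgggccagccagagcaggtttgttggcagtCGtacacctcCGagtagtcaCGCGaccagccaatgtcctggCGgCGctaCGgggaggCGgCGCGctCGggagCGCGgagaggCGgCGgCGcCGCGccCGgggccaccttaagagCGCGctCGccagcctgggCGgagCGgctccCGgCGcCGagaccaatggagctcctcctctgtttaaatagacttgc
Mki67: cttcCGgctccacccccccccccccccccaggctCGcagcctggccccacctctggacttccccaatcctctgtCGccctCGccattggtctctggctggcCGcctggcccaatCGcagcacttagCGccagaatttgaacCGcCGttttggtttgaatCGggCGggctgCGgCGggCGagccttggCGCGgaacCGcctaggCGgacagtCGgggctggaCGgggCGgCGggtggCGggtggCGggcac
Cdc6: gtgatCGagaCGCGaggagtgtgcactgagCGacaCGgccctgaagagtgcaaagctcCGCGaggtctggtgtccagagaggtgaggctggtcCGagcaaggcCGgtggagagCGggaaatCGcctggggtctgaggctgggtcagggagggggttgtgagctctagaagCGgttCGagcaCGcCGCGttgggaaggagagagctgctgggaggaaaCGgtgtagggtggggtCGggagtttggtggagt
Top2a: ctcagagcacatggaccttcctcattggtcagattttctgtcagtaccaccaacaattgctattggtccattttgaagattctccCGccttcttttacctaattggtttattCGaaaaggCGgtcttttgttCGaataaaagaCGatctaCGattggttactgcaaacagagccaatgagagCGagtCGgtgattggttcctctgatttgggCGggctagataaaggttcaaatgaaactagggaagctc
The regions of the table are on mm9, so these windows cannot be placed on them by coordinate. In the table's own annotation, 29 regions of 23 of the genes are marked as promoter. Of these, 26 end upstream of the nearest listed start, with a median gap of 654 bp (149 to 2145 bp), 1 begins downstream of it, and 2 reach over it (6.90%). Over all genes 25.1% of 13045 such regions reach over the start. The exceptions are the region of Top2a, which has the lowest CpG count of the 4 stretches printed, and 1 of Ccnd3.

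Differences are given as log2 fold changes ± SE of pull-down reads summed over all regions of a gene, and a gene is called at an adjusted p under 0.05. The 3 comparisons with naive cells share the same 2 naive libraries. Against naive cells, 4 of the 35 genes were higher in Treg (11.4%, against 20.3% of all genes tested) and 9 were lower (25.7%, against 18.9%). Without naive replicate 2 these 13 calls became 8. In TGFβ iTreg 12 were higher (23.4% of all genes were) and 3 lower (18.1%). In RA+VitC iTreg 22 of 35 were higher, against 29.2% of all genes, and 3 lower, against 26.6%. Between the iTreg groups 9 were higher with RA and VitC (12.3% of all genes) and 1 lower (10.8%), or 6 calls without TGFβ iTreg replicate 1. The median over the 35 genes was -0.09 in Treg, 0.22 in TGFβ iTreg, 0.45 in RA+VitC iTreg, and 0.22 between the iTreg groups, where the median of all genes lay between -0.02 and 0.00.

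When scaling used only the number of reads per library, without TMM, the median of all genes was shifted by -0.16 in RA+VitC iTreg against naive cells. The genes then split into 20 higher and 5 lower in that comparison, and into 7 higher and 2 lower between the iTreg groups, where 8.29% of all genes were then higher and 15.6% lower. Of all genes, 3461 were then higher and 5510 lower in RA+VitC iTreg, in place of 4370 and 3975. In the inputs, none of the 35 genes was called in any comparison by edgeR (lowest adjusted p 0.10), and 3 to 5 of them had an unadjusted p under 0.05. Of all 12824 genes tested in the inputs, 0 to 3 were called per comparison and 654 to 851 had an unadjusted p under 0.05. The absence of calls is thus no trait of these genes. With the input difference subtracted, 16 genes were called in RA+VitC iTreg against naive cells, all higher, 15 of them among the 25 called without inputs. The 10 calls lost were those of Ccnd1, Ccnd2, Ccnd3, Cdk4, Cdkn2c, Rb1, Cdc25a, Myc, Mcm5 and Birc5, and E2f2 was gained. In TGFβ iTreg 9 of the 15 calls were kept, and those of Cdk2, Cdk4, Cdkn1b, Rb1, Aurka and Birc5 were lost. In Treg 3 of the 13 calls were kept (Ccnd3, Cdk6 and Top2a) and 2 were gained (E2f1 and Plk1). The share of all genes called with inputs subtracted is not given, so these counts, here and below, stand without a background.

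**Figure D1:**
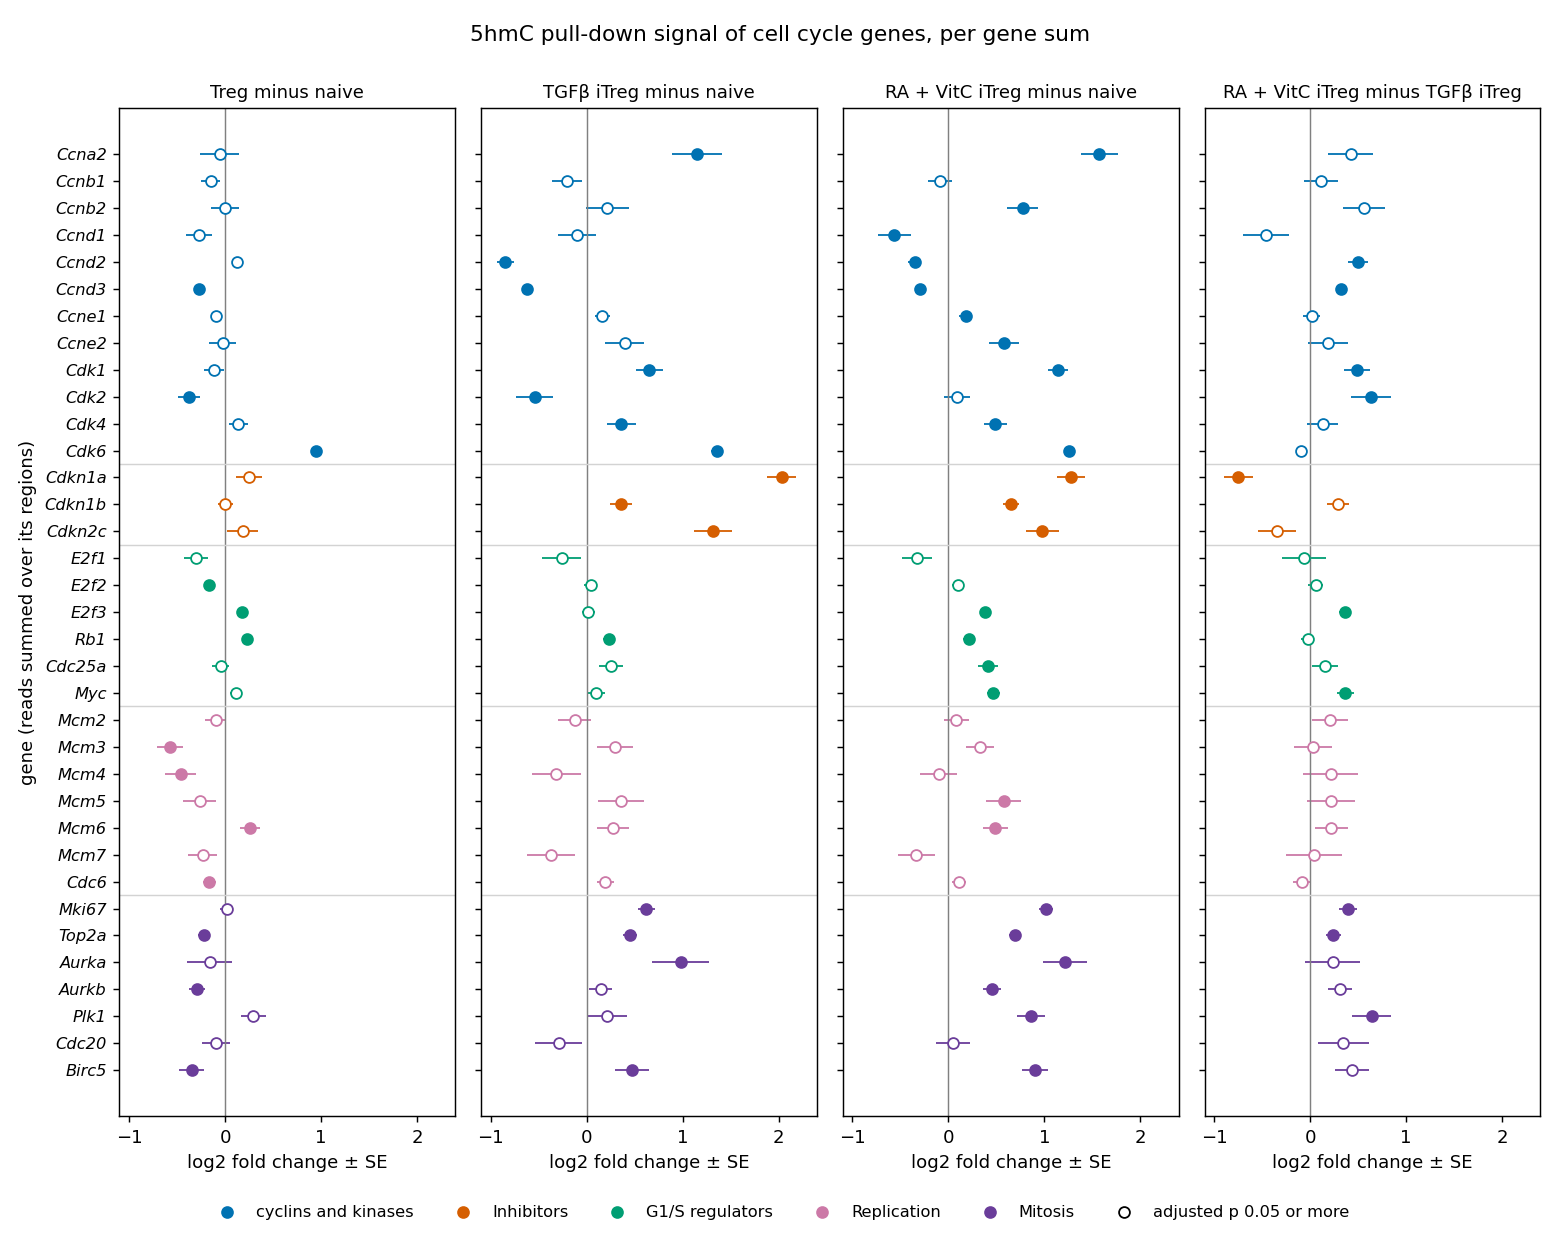
Log2 fold change (± SE) of summed pull-down reads for the 35 tested genes in 4 comparisons, with genes on the vertical axis by role and filled points for an adjusted p under 0.05. Cdk6 lies to the right in all 3 comparisons with naive cells, and Ccnd2 and Ccnd3 lie to the left in both iTreg groups while Cdkn1a, Cdkn2c, Cdk1 and Mki67 lie to the right.

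Of the D cyclins, Ccnd2 and Ccnd3 carried less of the mark in iTreg than in naive cells. Ccnd3 had the highest signal per kb of region of any of the 36 genes in naive cells, 8.83 CPM per kb, against 3.14 in the naive inputs. Summed over its 9 regions it held 760.4 and 746 CPM in naive cells, 611 and 634 in Treg, 479 and 497 in TGFβ iTreg and 632 and 591 in RA+VitC iTreg. All 6 libraries of the other groups lay below both naive libraries. The log2 fold change was -0.28 ± 0.04 in Treg (adjusted p = 1.9e-08), -0.62 ± 0.05 in TGFβ iTreg (3.8e-21), then -0.30 ± 0.05 in RA+VitC iTreg (5.8e-09). The last value was -0.20 (adjusted p = 0.10) with inputs subtracted.

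The regions of Ccnd3 did not move together. In the intronic region chr17:47679624-47700507 (mm9), CPM was 171 and 168 in naive cells, 133 and 137 in Treg, 69.4 and 75.3 in TGFβ iTreg, and 94.6 and 89.3 in RA+VitC iTreg. The loss there was -1.22 ± 0.11 in TGFβ iTreg (adjusted p = 2.6e-27) and -0.88 ± 0.09 in RA+VitC iTreg (1.1e-21). The neighbouring region, chr17:47701218-47725845, fell by 1.14 and by 0.96 on the log2 scale. By contrast, chr17:47659143-47668339, which reaches over a start of Ccnd3, was 0.31 ± 0.09 higher in RA+VitC iTreg (adjusted p = 0.0017), and the region over the 3′ UTR, chr17:47733134-47737091, was 0.67 ± 0.11 higher (3.2e-08). In TGFβ iTreg neither passed (-0.14 and 0.23).

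Ccnd2, another D cyclin, lay almost whole in 1 region of 25.0 kb that takes in exons, introns and the 3′ UTR (chr6:127072817-127097812). The gene held 142 and 141 CPM in naive cells, 154 and 155 in Treg, 77.8 and 79.4 in TGFβ iTreg and 109 and 114 in RA+VitC iTreg. Both iTreg groups lay below the sorted cells, with RA+VitC iTreg between. The fold change was -0.85 ± 0.09 in TGFβ iTreg (adjusted p = 1.2e-14) and -0.35 ± 0.07 in RA+VitC iTreg (4.4e-06), with 0.13 ± 0.06 in Treg (0.059). With inputs subtracted the RA+VitC iTreg value was -0.18 (adjusted p = 0.46). Ccnd1, the D cyclin with little role in lymphocytes, was lower in RA+VitC iTreg (-0.56 ± 0.17, adjusted p = 0.0037), with 93.8% of its reads in regions outside the gene, and stood at 0.06 with inputs subtracted. Its region 107 kb away, chr7:152232383-152233573, was lower in all 3 comparisons with naive cells (-0.78, -1.40 and -1.69).

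Cdk6, the kinase partner of D cyclins in lymphocytes, gained more of the mark than any other cyclin or kinase in Treg. It held 230.4 and 222 CPM in naive cells, 427 and 443 in Treg, 559 and 593 in TGFβ iTreg, and 544 and 538 in RA+VitC iTreg. No library of another group came near the naive ones, and the iTreg libraries lay above those of Treg. The fold change was 0.94 ± 0.05 in Treg (adjusted p = 5.4e-39), 1.35 ± 0.06 in TGFβ iTreg (4.6e-48), then 1.26 ± 0.05 in RA+VitC iTreg (1.1e-49). Between the iTreg groups it was -0.09 ± 0.05 (adjusted p = 0.23). Per kb of region Cdk6 stood at 2.11 CPM in naive pull-downs and 3.97 in naive inputs, and at 5.37 and 3.77 in those of TGFβ iTreg.

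The gain of Cdk6 was spread along its introns. Of its 51 tested regions, 30 were higher in Treg, 27 in RA+VitC iTreg and 22 in TGFβ iTreg (13.0%, 21.9% and 13.1% of all regions were), and none was lower by edgeR. At an unadjusted p under 0.05, 1 region was lower in Treg and 1 in RA+VitC iTreg, and by DESeq2 13 regions were higher in Treg, 20 in RA+VitC iTreg and 19 in TGFβ iTreg, and none lower. The intronic region chr5:3457237-3464467 held 24.5 and 24.8 CPM in naive cells, 35.2 and 38 in Treg, 115 and 123 in TGFβ iTreg, and 109 and 104 in RA+VitC iTreg. These are differences of 0.57, 2.27 and 2.11, the iTreg groups standing apart from Treg as well. A smaller region, chr5:3476604-3479706, rose from 2.72 and 2.68 CPM to 17.0 and 14.8 in Treg, 24.7 and 36.7 in TGFβ iTreg and 45.8 and 43.2 in RA+VitC iTreg (2.55, 3.52 and 4.03). A region 21.4 kb away from the gene, chr5:3321644-3322533, held 0.124 and 0.495 CPM in naive cells, 1.35 and 1.37 in Treg, 1.15 and 3.38 in TGFβ iTreg, and 11.3 and 11.5 in RA+VitC iTreg. That region was 2.26 ± 0.44 higher with RA and VitC than with TGFβ alone (adjusted p = 2e-05). Between the iTreg groups 2 of the 51 regions were higher by edgeR (4.56% of all regions were) and 0 by DESeq2. At an unadjusted p under 0.05, 3 were higher and 6 lower. In the region 21.4 kb away, naive replicate 1 and TGFβ iTreg replicate 1 lay under the floor of 3 reads (0.372 and 1.79 CPM).

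Among the genes of S phase and mitotic entry, Ccna2 and Cdk1 were higher in both iTreg groups and not in Treg. Cdk1, the kinase of mitosis, held 29.0 and 28.0 CPM in naive cells, 24.9 and 27.4 in Treg, 41.3 and 47.5 in TGFβ iTreg, and 61.2 and 64.2 in RA+VitC iTreg. The 4 groups did not overlap. The fold change was 0.65 ± 0.14 in TGFβ iTreg (adjusted p = 4.6e-05), 1.14 ± 0.10 in RA+VitC iTreg (5.3e-19) and 0.49 ± 0.14 between them (0.0035). With inputs subtracted the difference between the iTreg groups was -0.0057 (adjusted p = 0.99), while those from naive cells were 0.78 in both (0.0091 and 0.0018). Its region from the 5′ UTR into the first introns, chr10:68809520-68813708, rose by 0.66 and 1.28. Ccna2, cyclin A2, stood at 6.69 and 7.03 CPM in naive cells, 8.02 and 5.30 in Treg, 19.1 and 12.1 in TGFβ iTreg, and 22.5 and 18.4 in RA+VitC iTreg. Its gain was 1.15 ± 0.26 in TGFβ iTreg (adjusted p = 8.2e-05) and 1.57 ± 0.19 in RA+VitC iTreg (1.5e-12), on 3 regions of 2.65 kb in all. In naive pull-downs Ccna2 stood at 2.59 CPM per kb, against 5.57 in the naive inputs.

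The remaining cyclins and kinases moved less. Ccnb2, a B cyclin, was 0.77 ± 0.16 higher in RA+VitC iTreg, and Ccne2 and Ccne1, the E cyclins, 0.58 ± 0.16 and 0.18 ± 0.07 higher. Cdk4 was 0.36 ± 0.15 higher in TGFβ iTreg and 0.49 ± 0.12 higher in RA+VitC iTreg. Ccnb1, cyclin B1, passed in no comparison (-0.20 to 0.12). Cdk2, the partner of cyclins E and A, held 25.0 and 23.5 CPM in naive cells, 19.9 and 17.4 in Treg, 17.4 and 16 in TGFβ iTreg, and 23.8 and 27.6 in RA+VitC iTreg. It was lower in Treg (-0.38 ± 0.12, adjusted p = 0.0060) and in TGFβ iTreg (-0.54 ± 0.19, 0.016), and 0.63 ± 0.21 higher in RA+VitC iTreg than in TGFβ iTreg (0.018). Each of these 3 calls was lost with DESeq2, after thinning to equal depth and with inputs subtracted. In the last fit the value turned sign in TGFβ iTreg (0.12) and between the iTreg groups (-0.033). Without TGFβ iTreg replicate 2 its value in TGFβ iTreg was -0.48 (adjusted p = 0.19), and without Treg replicate 2 that in Treg was -0.28 (0.13). The value between the iTreg groups was 0.53 (0.12) without RA+VitC iTreg replicate 2.

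**Figure D2:**
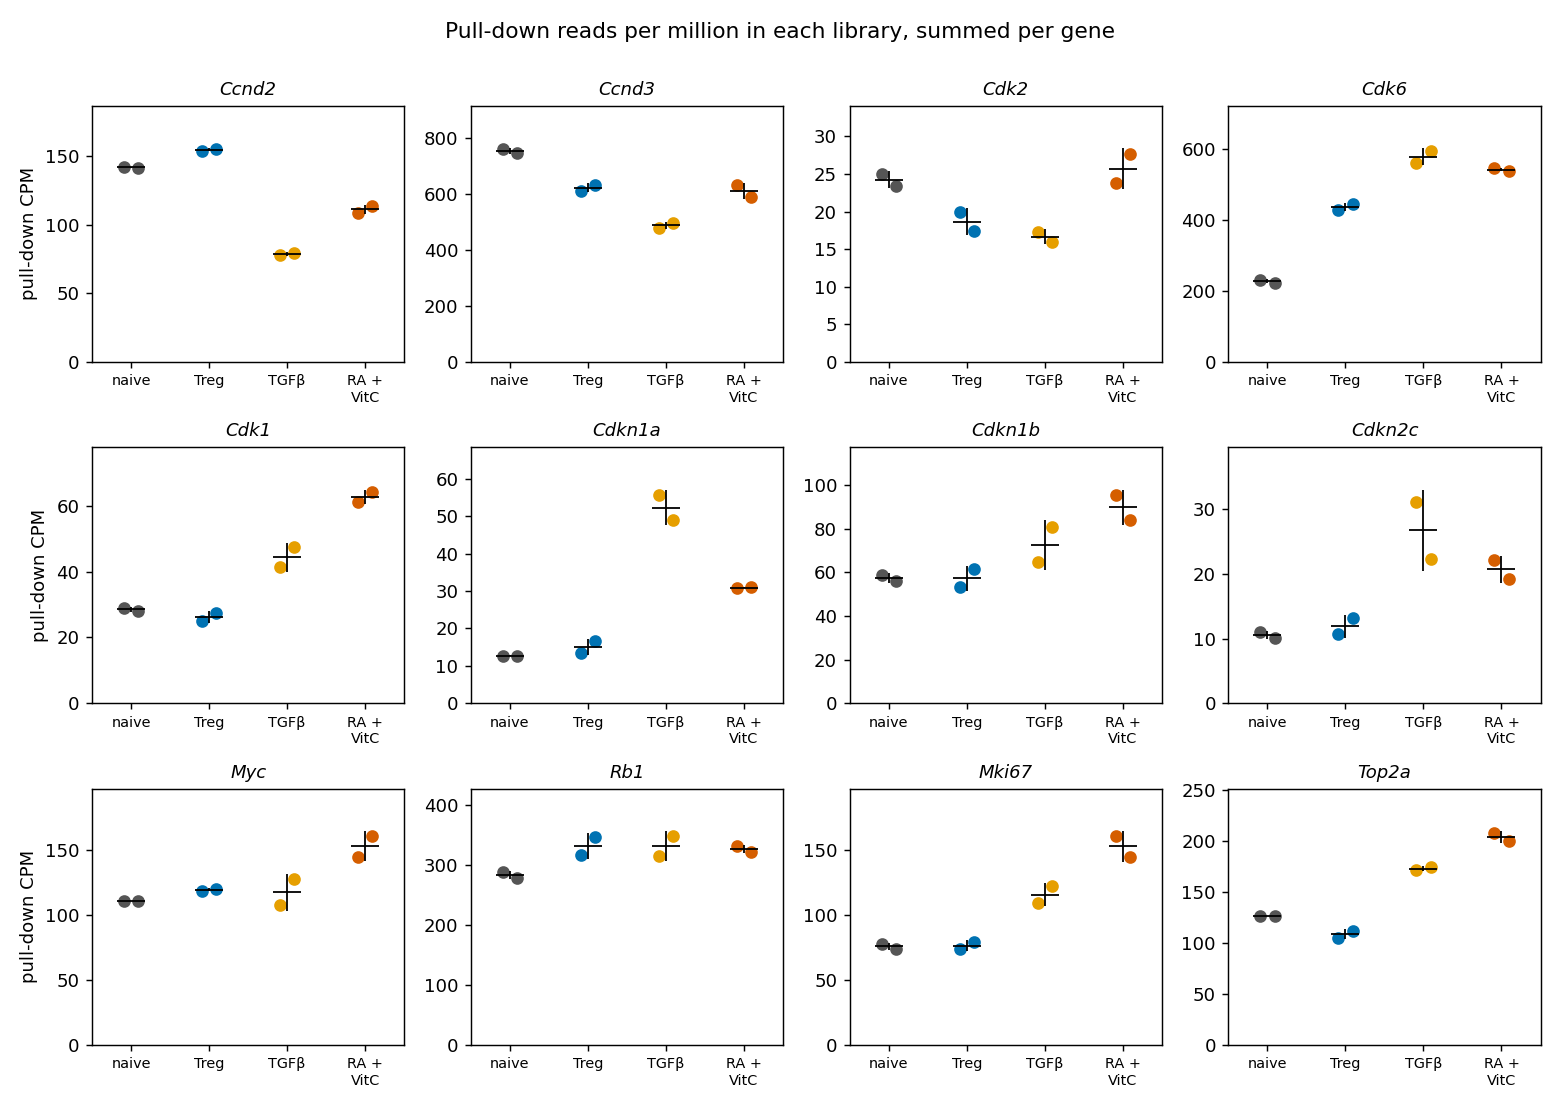
Pull-down CPM summed over the regions of 12 genes in each of the 8 libraries, with points for libraries and black lines for the mean and SD of 2. Ccnd2 is highest in sorted cells and Ccnd3 in naive cells. Cdkn1a is highest in TGFβ iTreg at 55.6 and 48.9 CPM, and Cdk1, Mki67 and Top2a are highest in RA+VitC iTreg.

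All 3 measured inhibitors of the kinases were called higher in both iTreg groups than in naive cells. By comparison, 23.4% of all genes were called higher with TGFβ alone, and 29.2% once RA and VitC were added. With inputs subtracted, 1 inhibitor call in each iTreg group was lost. None of the 3 was called in Treg by edgeR, at an unadjusted p under 0.05, or by DESeq2. Of all genes, edgeR called 20.3% higher and 18.9% lower there. With only 3 genes, these counts are no result for inhibitors as a class. Cdkn1a (p21) held 12.6 and 12.8 CPM in naive cells, 13.5 and 16.6 in Treg, 55.6 and 48.9 in TGFβ iTreg, and 30.8 and 31.0 in RA+VitC iTreg. The iTreg groups overlapped neither the sorted cells nor each other. The gain was 2.03 ± 0.16 in TGFβ iTreg (4.08-fold, adjusted p = 7.1e-24) and 1.28 ± 0.15 in RA+VitC iTreg (6.2e-14). RA+VitC iTreg stood 0.75 below TGFβ iTreg on the log2 scale (log2 fold change -0.75 ± 0.15, adjusted p = 3.3e-05), the 1 lower call of that comparison. Over the regions on the transcript alone this last value was -0.50 (adjusted p = 0.084). Per kb of region Cdkn1a stood at 1.64 CPM in naive pull-downs and 4.33 in naive inputs. Pull-down and input stood at 6.75 and 3.53 in TGFβ iTreg, and at 3.99 and 4.20 in RA+VitC iTreg.

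The signal of Cdkn1a rose at its promoter and beside the gene. In the promoter region chr17:29226020-29227781, which ends 149 bp before the start, it stood at 2.35 and 2.87 CPM in naive cells, 3.08 and 3.87 in Treg, 11.5 and 9.17 in TGFβ iTreg, and 5.93 and 7.78 in RA+VitC iTreg. The differences from naive cells were 1.95 ± 0.34 and 1.37 ± 0.31 in the iTreg groups. A region 10.7 kb from the gene, chr17:29248325-29248782, held 0.865 and 1.09 CPM in naive cells and 8.61 and 8.69 in TGFβ iTreg (3.10 ± 0.45, adjusted p = 1.3e-10). At chr17:29240873-29241562, 3.21 kb from the gene, the libraries of TGFβ iTreg held 9.18 and 3.38 CPM, those of RA+VitC iTreg 0.565 and 0.864, and those of naive cells 0.371 and 0.495. This region was called in TGFβ iTreg against naive cells (3.74 ± 0.71, adjusted p = 2.2e-06). It was lower in RA+VitC iTreg than in TGFβ iTreg (-3.06 ± 0.78, 0.0031). The RA+VitC iTreg and naive values there lie near the floor of 3 reads, and the TGFβ iTreg libraries lay apart from each other.

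Cdkn1b (p27), an inhibitor known for holding resting T cells out of the cycle, held 59.0 and 56.0 CPM in naive cells, 53.2 and 61.4 in Treg, 64.6 and 80.9 in TGFβ iTreg, and 95.5 and 84.3 in RA+VitC iTreg. The 2 TGFβ iTreg libraries lay apart from each other, both above the sorted cells. Its gain was 0.36 ± 0.11 in TGFβ iTreg (adjusted p = 0.0054) and 0.65 ± 0.09 in RA+VitC iTreg (4.9e-11). Without TGFβ iTreg replicate 2 the first value was 0.17 (adjusted p = 0.47), and with inputs subtracted 0.38 (0.28). Its regions differed in direction. The region over the 3′ UTR, chr6:134873363-134876713, rose by 1.18 ± 0.12 in RA+VitC iTreg and 1.05 ± 0.15 in TGFβ iTreg. At the promoter, chr6:134867339-134869893, which ends 525 bp before the start, CPM was 23.5 and 19.7 in naive cells, 17.8 and 15.0 in TGFβ iTreg, and 31.4 and 27.4 in RA+VitC iTreg. The promoter was thus 0.45 ± 0.14 higher in RA+VitC iTreg than in naive cells (adjusted p = 0.0051) and 0.85 ± 0.21 higher than in TGFβ iTreg (0.0023). A region 3.81 kb from the start, chr6:134865149-134866613, was higher in Treg (0.52 ± 0.18) and lower in TGFβ iTreg (-1.11 ± 0.40). Cdkn2c (p18) stood at 11.0 and 10.1 CPM in naive cells, 10.7 and 13.1 in Treg, 31.1 and 22.3 in TGFβ iTreg, and 22.2 and 19.3 in RA+VitC iTreg. Its gain was 1.32 ± 0.20 in TGFβ iTreg (adjusted p = 7.3e-09) and 0.98 ± 0.17 in RA+VitC iTreg (3.1e-07), the latter 0.64 (0.14) with inputs subtracted.

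Of the G1/S regulators, Rb1 and E2f3 changed little by their sums. Rb1, the retinoblastoma protein, held 288 and 279 CPM in naive cells, 317 and 348 in Treg, 315 and 349 in TGFβ iTreg, and 332 and 322 in RA+VitC iTreg. The naive libraries lay below the other 6, and the other groups overlapped. Its fold change was 0.23 ± 0.05 in Treg (adjusted p = 2.5e-05), 0.24 ± 0.06 in TGFβ iTreg, 0.21 ± 0.05 in RA+VitC iTreg, and -0.07 in the last with inputs subtracted. A region of 7.61 kb, chr14:73696564-73704173, moved more, from 22.5 and 20.9 CPM in naive cells to 28.6 and 30.9 in Treg, 58.5 and 69 in TGFβ iTreg and 46.3 and 47.3 in RA+VitC iTreg (0.46, 1.57 and 1.11). E2f3, an activating E2F factor, was 0.18 ± 0.05 higher in Treg (adjusted p = 0.0015) and 0.38 ± 0.05 higher in RA+VitC iTreg (1.6e-10), and stood at 0.02 ± 0.06 in TGFβ iTreg. E2f2 was lower in Treg (-0.17 ± 0.05), E2f1 passed in no comparison (-0.33 to -0.07) but was called lower in Treg with inputs subtracted (-0.89 ± 0.28, adjusted p = 0.015), and Cdc25a, a phosphatase that activates Cdk2, was 0.41 ± 0.10 higher in RA+VitC iTreg. Within E2f2 the intronic region chr4:135729212-135733252 was 1.00 ± 0.11 higher in RA+VitC iTreg, and the region at the 3′ end, chr4:135750178-135752708, was -0.59 ± 0.16.

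Myc, the growth factor-driven transcription factor, had 23 regions, of which 21 lay outside the gene and its promoter, up to 98.6 kb away. Its sum was 110.2 CPM in both naive libraries, 118 and 119.9 in Treg, 107 and 127 in TGFβ iTreg, and 145 and 161 in RA+VitC iTreg. The RA+VitC iTreg libraries lay above all others (0.47 ± 0.07 against naive cells, adjusted p = 1.1e-09, and 0.37 ± 0.09 against TGFβ iTreg, 8.3e-04). With inputs subtracted these were 0.28 (adjusted p = 0.11) and 0.23 (0.44), and without TGFβ iTreg replicate 1 the second was 0.26 (0.074). Distal and gene body regions differed. A region 54.9 kb away, chr15:61761607-61761965, held 0.371 and 0.297 CPM in naive cells, 2.34 and 2.05 in Treg, 4.02 and 2.41 in TGFβ iTreg, and 5.08 and 5.19 in RA+VitC iTreg, and was called in all 3 (2.65, 3.17 and 3.87). Another 34.8 kb away, chr15:61781198-61782140, was likewise higher in all 3 (1.91, 1.87 and 2.76). Over the gene body, chr15:61820308-61827132, CPM was 53.0 and 52.4 in naive cells, 43.7 and 44.6 in Treg, 32.7 and 51.2 in TGFβ iTreg, and 73.4 and 77.5 in RA+VitC iTreg. There the mark was lower in Treg (-0.25 ± 0.09, adjusted p = 0.032) and higher in RA+VitC iTreg (0.52 ± 0.10, 2.6e-06), by 0.82 ± 0.14 above TGFβ iTreg (9.7e-07). Summed over its promoter, Myc was higher in all 3 comparisons with naive cells, by 0.54 ± 0.12, 0.51 ± 0.19 and 0.52 ± 0.15.

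**Figure D3:**
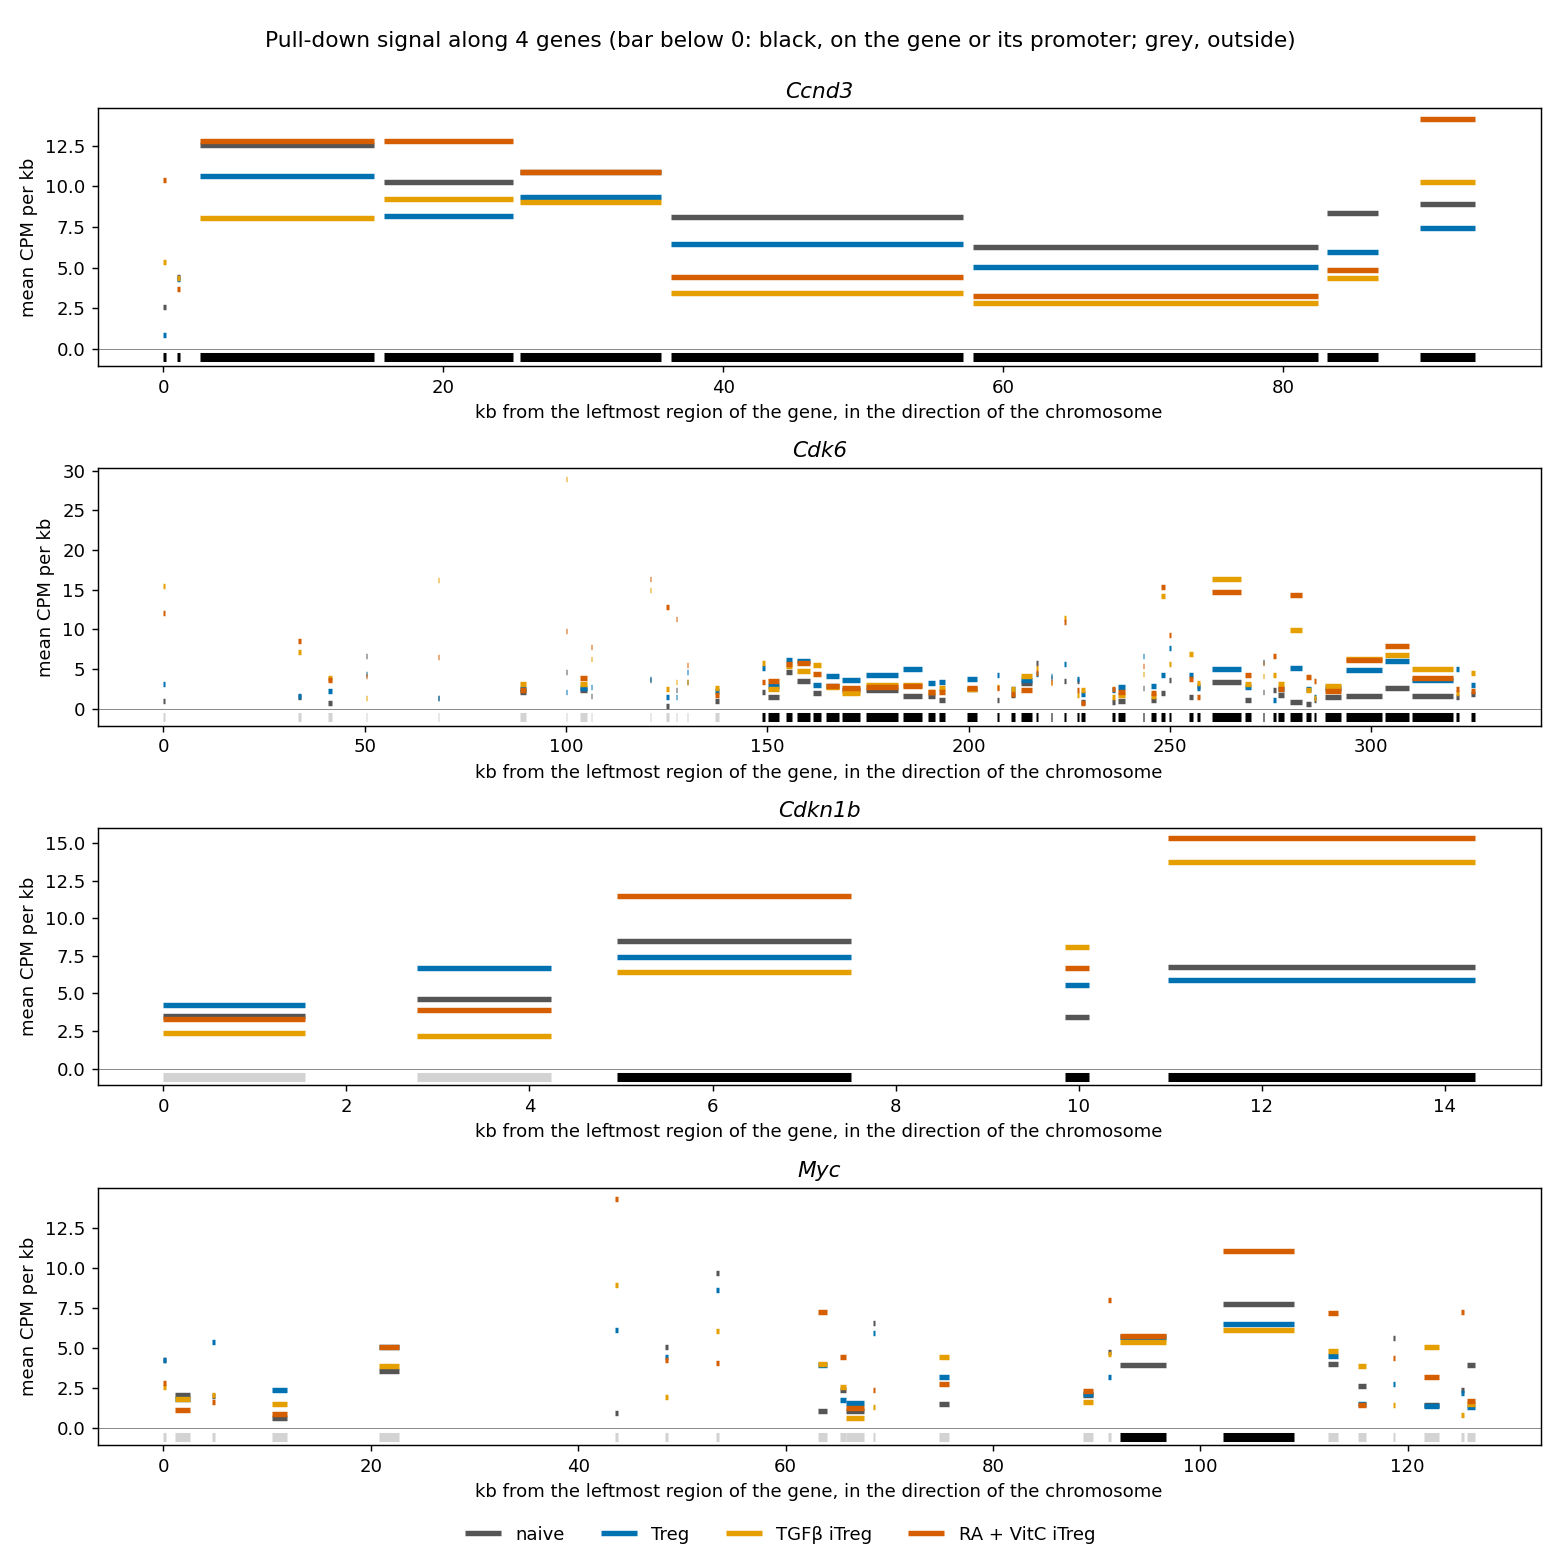
Mean pull-down CPM per kb of each region along Ccnd3, Cdk6, Cdkn1b and Myc, with the distance in kb from the leftmost region on the horizontal axis, 1 coloured line per group and bars below zero in black for regions on the gene or its promoter and grey for those outside. In Ccnd3 the long regions in the middle are lowest in iTreg while the region at the right end is highest in RA+VitC iTreg, and in Myc the gene body is highest in RA+VitC iTreg.

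The Mcm proteins form the helicase that opens the DNA, and Cdc6 loads it. Of these 7 genes, 1 was higher and 3 lower in Treg (20.3% and 18.9% of all genes were), none was called in TGFβ iTreg by edgeR or DESeq2 (1 at an unadjusted p under 0.05), and 2 were higher in RA+VitC iTreg, Mcm5 (0.58 ± 0.18) and Mcm6 (0.49 ± 0.13). Those 2 of 7 are 28.6%, near the 29.2% of all genes. Their median was 0.11 in RA+VitC iTreg and 0.19 in TGFβ iTreg. Mcm3 held 18.5 and 19.4 CPM in naive cells, 11.7 and 13.8 in Treg, 19.1 and 26.6 in TGFβ iTreg, and 25.4 and 22.0 in RA+VitC iTreg. The Treg libraries lay below all others (-0.57 ± 0.14, adjusted p = 2.6e-04). This difference came mostly from a region 4.27 kb from the gene, chr1:20814563-20816470 (-1.15 ± 0.28), and over the regions on the transcript it was -0.30 (adjusted p = 0.20). Mcm4 (-0.46 ± 0.16) and Cdc6 (-0.16 ± 0.06) were also lower in Treg. Mcm6 held 22.2 and 27.4 CPM in naive cells and 33.0 and 27.2 in Treg, where its call (0.26 ± 0.11, adjusted p = 0.043) was lost without Treg replicate 1 (0.11, 0.56) or naive replicate 1 (0.12, 0.51). Mcm2 and Mcm7 passed in no comparison.

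Although no region was assigned to Pcna, 2 regions lie on it. The larger, chr2:132071698-132077676, is assigned to its neighbour Tmem230. It held 23.5 and 21.1 CPM in naive cells, 17.2 and 15.1 in Treg, 20.1 and 27.5 in TGFβ iTreg, and 37.0 and 38.6 in RA+VitC iTreg. It was lower in Treg (-0.46 ± 0.13, adjusted p = 0.0031) and higher in RA+VitC iTreg than in naive cells (0.77 ± 0.13, 6.7e-08) and than in TGFβ iTreg (0.65 ± 0.18, 0.010). The promoter region, chr2:132079957-132081492, has no assigned gene and a mean of 16.4 pull-down reads. It rose from 1.85 and 1.68 CPM in naive cells to 7.34 and 5.76 in RA+VitC iTreg (1.88 ± 0.35, adjusted p = 6.1e-07). In TGFβ iTreg it held 4.59 and 3.86 CPM and was called higher too (1.24 ± 0.48, 0.046). Between the iTreg groups it was not called (0.64, 0.45). The mean of its inputs was 6.24 CPM in naive cells and 9.29 in RA+VitC iTreg, above the pull-downs in both. Over all the genes, 22 regions lie on 14 of them but are assigned to another gene or to none, 12 of these on a promoter, and they are in no sum above.

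Most mitosis genes carried more of the mark in RA+VitC iTreg than in naive cells, where 6 of 7 were higher by edgeR and by DESeq2 (29.2% of all genes by edgeR), with a median of 0.86, and none was lower, also at an unadjusted p under 0.05. In TGFβ iTreg 4 of 7 were higher (median 0.45, against 23.4% of all genes). In Treg 3 were lower (median -0.16, against 18.9%) and none was higher by edgeR or DESeq2, with 1 at an unadjusted p under 0.05. With inputs subtracted Plk1 was called higher in Treg (0.81 ± 0.28, adjusted p = 0.030). The lower calls there of Aurkb (-0.17, 0.61) and Birc5 (-0.54, 0.23) were then lost. Pull-down values are TMM-scaled (factors 1.04 in both naive libraries, 0.92 and 0.94 in RA+VitC iTreg) and inputs are not. Per kb of region and on these scales, the 6 genes higher in RA+VitC iTreg lay below their inputs in naive cells. Naive pull-downs and inputs stood at 3.18 and 3.89 CPM for Mki67, 3.73 and 3.85 for Top2a, and 2.31 and 3.47 for Aurka. They stood at 3.67 and 4.44 for Aurkb, 2.41 and 4.56 for Plk1, and 4.52 and 4.79 for Birc5. Cdc20 lay above its naive input (4.11 and 2.56). In RA+VitC iTreg the 6 lay above their inputs, from 4.37 against 3.77 (Plk1) to 8.54 against 5.95 (Birc5). For Top2a the gap in naive cells lay within the SD of the inputs and may turn with the scaling. Its sum was 126.5 CPM against 130.5 (SD 13.7) in the naive inputs. The naive gaps of Aurka and Birc5 lay within the SD of their inputs too. The share of all genes with this pattern is not given, so it cannot be read as a trait of these genes. Mki67, which encodes the proliferation marker Ki-67, held 77.7 and 73.9 CPM in naive cells, 73.6 and 79.2 in Treg, 109 and 122 in TGFβ iTreg, and 161 and 145 in RA+VitC iTreg. Sorted cells overlapped, and the iTreg groups lay above them in order. The gain was 0.62 ± 0.09 in TGFβ iTreg (adjusted p = 4.9e-09), 1.02 ± 0.07 in RA+VitC iTreg (8.8e-27) and 0.39 ± 0.09 between them (3.4e-04), and in Treg the value was 0.02 ± 0.07. The region near its start, chr7:142904485-142906695, rose by 1.46 ± 0.17 and 1.76 ± 0.13. The larger exonic region beside it, chr7:142895075-142903702, held 32.1 and 29.0 CPM in naive cells, 35.6 and 41.5 in TGFβ iTreg, and 74.3 and 63.7 in RA+VitC iTreg. Only the RA+VitC iTreg libraries stood apart there (1.18 ± 0.11 against naive cells and 0.83 ± 0.15 against TGFβ iTreg).

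Top2a, the topoisomerase that untangles chromosomes before they part, held 127 and 126 CPM in naive cells, 105 and 112 in Treg, 171 and 174 in TGFβ iTreg, and 208 and 200.1 in RA+VitC iTreg. The 4 groups did not overlap. It was lower in Treg (-0.22 ± 0.06, adjusted p = 0.0014) and higher in TGFβ iTreg (0.45 ± 0.08, 2.4e-07) as well as RA+VitC iTreg (0.69 ± 0.06, 1.6e-19). The exonic region chr11:98877566-98884346 moved in the same order, by -0.63, 0.64 and 0.98. Birc5 (survivin), part of the chromosomal passenger complex, stood at 16.3 and 20.7 CPM in naive cells, 15.2 and 14.3 in Treg, 26.3 and 25.7 in TGFβ iTreg, and 38.2 and 31.8 in RA+VitC iTreg. It was 0.47 ± 0.18 higher in TGFβ iTreg (adjusted p = 0.026) and 0.90 ± 0.13 higher in RA+VitC iTreg (2e-09), the latter 0.59 (0.14) with inputs subtracted. Its lower value in Treg (-0.35 ± 0.13, adjusted p = 0.026) was lost without naive replicate 2 (-0.15, 0.55).

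Plk1, a kinase of the spindle and of mitotic entry, held 14.9 and 15.9 CPM in naive cells, 19.7 and 18.3 in Treg, 20.9 and 15.5 in TGFβ iTreg, and 31.7 and 24.3 in RA+VitC iTreg. It was 0.86 ± 0.15 higher in RA+VitC iTreg than in naive cells (adjusted p = 1.4e-07). Its value of 0.64 ± 0.20 between the iTreg groups (adjusted p = 0.012) was lost without RA+VitC iTreg replicate 1 (0.44, 0.23) or TGFβ iTreg replicate 2 (0.42, 0.31). Aurka, the centrosome kinase, was 0.98 ± 0.30 higher in TGFβ iTreg and 1.21 ± 0.23 higher in RA+VitC iTreg, from 4.71 and 6.04 CPM in naive cells. Aurkb, its relative at the centromere, was lower in Treg (-0.29 ± 0.08) and higher in RA+VitC iTreg (0.45 ± 0.09). Its promoter region, chr11:68855444-68858513, was 1.24 ± 0.15 higher in RA+VitC iTreg, while the region beside the gene, chr11:68865944-68872233, was lower (-0.42 ± 0.15). Cdc20, which activates the anaphase-promoting complex, passed in no comparison by its sum (-0.29 to 0.34), with its exonic region 1.90 ± 0.33 higher and its promoter region -0.67 ± 0.22 in RA+VitC iTreg.

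The regions were also counted by the part of the gene they lie on. Compared with all regions that have a gene, those of the 36 genes were wider (median 936.5 bp against 752 bp). More of their reads lay in regions assigned to the 3′ UTR (18.7% against 9.96%) and to exons (17.5% against 13.7%). Fewer lay outside the gene (13.3% against 20.8%). A region counts whole for its part, so these are not reads on the 3′ UTR alone. All reads of Ccnd2 were counted there, as were 79.5% of those of Cdc6, 59.9% of E2f2 and 43.3% of Myc. With reads summed by gene part, 105 parts were tested. In Treg 11 parts were higher and 15 lower (15.5% and 13.4% of all parts), in TGFβ iTreg 26 and 6 (17.1% and 11.6%), in RA+VitC iTreg 54 and 8 (24.2% and 19.6%), and 12 and 2 between the iTreg groups (7.64% and 5.27%). In RA+VitC iTreg 16 of 22 exon parts and 10 of 14 intron parts were higher, and so were 10 of 27 parts at the start, 9 of 21 at the 3′ UTR and 9 of 21 outside. Of all parts of each kind, 22.3% were higher on exons, 25.5% on introns, 22.2% at starts, 20.1% at the 3′ UTR and 29.1% outside. The median over these parts was 0.80 for exons, 0.79 for introns, 0.35 for starts, 0.52 for the 3′ UTR and 0.40 outside, where that of all parts of each kind lay between -0.06 and 0.01. The difference between the kinds was not tested. Without TGFβ iTreg replicate 2 the 32 parts called in TGFβ iTreg became 19, without RA+VitC iTreg replicate 1 the 14 between the iTreg groups became 7, and the 26 in Treg became 16, 16 or 17 without Treg replicate 2, naive replicate 2 or naive replicate 1.

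By single regions, 55 of 302 were higher in Treg and 20 lower (13.0% and 10.1% of all regions), 60 and 14 in TGFβ iTreg (13.1% and 8.22%), 115 and 17 in RA+VitC iTreg (21.9% and 15.8%), and 16 and 2 between the iTreg groups (4.56% and 1.98%). Of the 55 higher in Treg, 30 were regions of Cdk6 alone. Regions of 1 gene are no replicates of a condition. Without Treg replicate 2 or naive replicate 2 the 75 calls in Treg became 47 or 42, without TGFβ iTreg replicate 2 the 74 in TGFβ iTreg became 42, and the 18 between the iTreg groups became 7 without RA+VitC iTreg replicate 1 and 11 without TGFβ iTreg replicate 1. For RA+VitC iTreg, 10 genes had regions called in both directions (Ccnd1, Ccnd3, Ccne1, E2f2, E2f3, Rb1, Myc, Mcm2, Aurkb and Cdc20), as did 5 in TGFβ iTreg, 3 in Treg (Ccne1, E2f3 and Myc) and 1 between the iTreg groups (Rb1). Those in TGFβ iTreg were Ccne1, Cdkn1b, E2f2, E2f3 and Rb1. The share of all genes with calls in both directions is not given here, so these counts cannot be read as a trait of these genes. By role, 24 of 46 mitosis regions were higher in RA+VitC iTreg and 2 lower, 7 and 2 of 31 replication regions, 26 and 7 of 102 G1/S regions, 9 and 0 of 17 inhibitor regions, and 49 and 6 of 106 regions of cyclins and kinases.

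**Figure D4:**
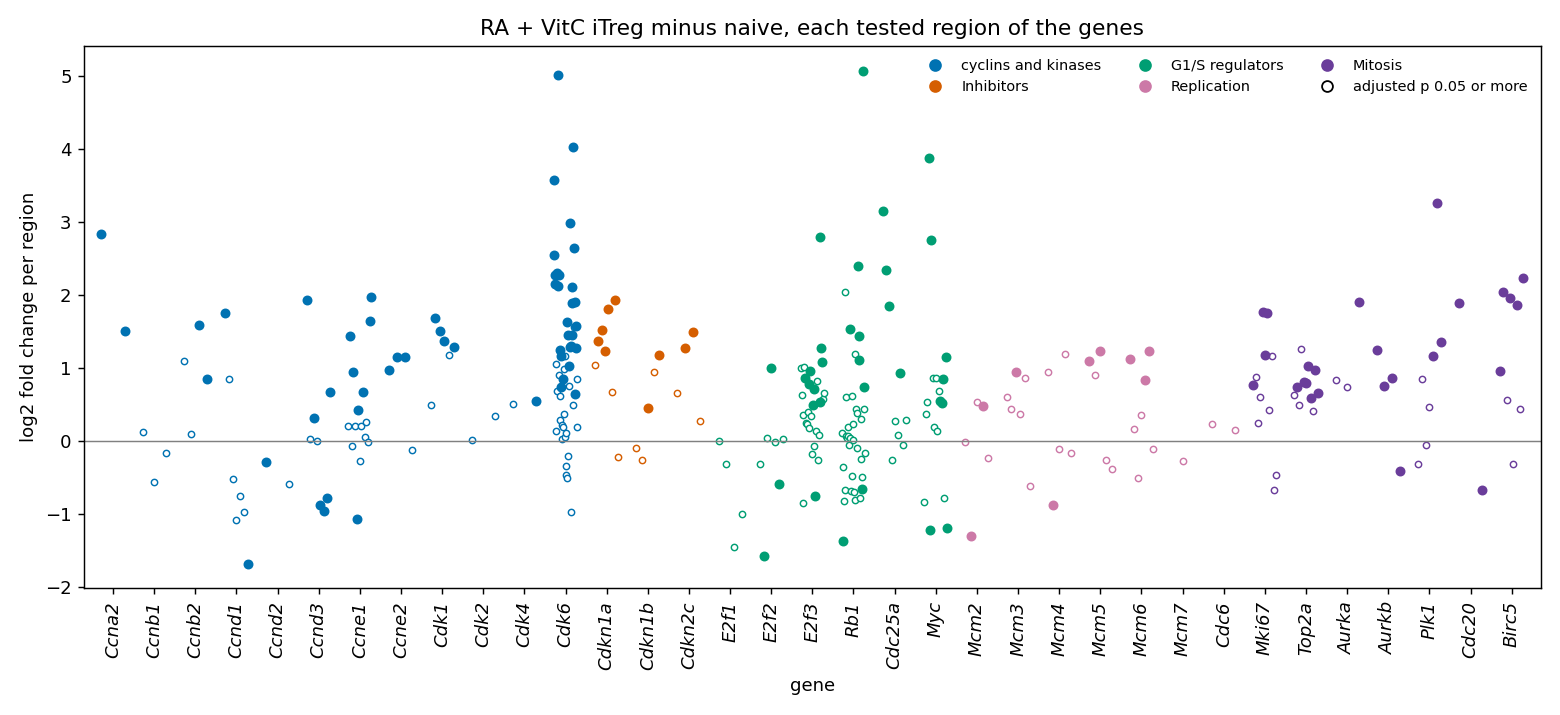
Log2 fold change of RA+VitC iTreg against naive cells for each of the 302 tested regions, by gene on the horizontal axis and coloured by role, with filled points for an adjusted p under 0.05. Most called regions lie above zero, 115 against 17 below, and Ccnd3, Myc and Rb1 have called points on both sides.

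With RA and VitC in place of TGFβ alone, the genes that were higher were 4 cyclins and kinases (Ccnd2, Ccnd3, Cdk1 and Cdk2), E2f3 and Myc, and the mitosis genes Mki67, Top2a and Plk1. For Ccnd2 (0.50 ± 0.10, adjusted p = 6.7e-05) and Ccnd3 (0.32 ± 0.06, 9.5e-07) the RA+VitC iTreg libraries lay between TGFβ iTreg and naive cells. For Cdk1, Mki67 and Top2a they lay beyond TGFβ iTreg, by values that with inputs subtracted were -0.0057 (adjusted p = 0.99), 0.26 (0.38) and 0.17 (0.54). For Cdkn1a, the gene that was lower, they lay between TGFβ iTreg and naive cells. No replication gene was called in this comparison by edgeR, at an unadjusted p under 0.05, or by DESeq2 (values -0.09 to 0.22). With inputs subtracted 3 of the 35 genes were called in it, Ccnd3, E2f3 and Cdkn1a.

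Another 94 genes, grouped in a chosen list as genes of the cell cycle, were counted in the same way, and 87 were tested. The role of each gene in the cycle was not tested. Of these, 22 were higher and 8 lower in Treg (25.3% and 9.20%, against 20.3% and 18.9% of all genes). With TGFβ alone these were 27 and 11 (31.0% and 12.6%, against 23.4% and 18.1%), and in RA+VitC iTreg 44 and 12 (50.6% and 13.8%, against 29.2% and 26.6%). Between the iTreg groups they were 21 and 4 (24.1% and 4.60%, against 12.3% and 10.8%). Their medians were 0.04, 0.21, 0.32 and 0.17. By role in RA+VitC iTreg, 17 of 23 mitosis genes were higher and 2 lower, 14 and 1 of 26 replication genes, 11 and 2 of 16 G1/S genes, and 2 and 7 of 14 inhibitors and other brakes, beside the 29.2% and 26.6% of all genes. The 8 other cyclins and kinases tested were Ccnf, Ccnh, Cdk7, Ccnt1, Cdk9, Ccng1, Ccng2 and Ccnk. None of these 8 was called there by edgeR or DESeq2, and 1 was lower at an unadjusted p under 0.05. They were grouped by name, so this is no result for cyclins and kinases of the cycle as a class. Among the listed brakes more were lower (Cdkn2d, Rbl2, Pkmyt1, Chek2, Mdm2, Gadd45a and Tob1) than higher (Chek1 and Gadd45b). The 3 inhibitors above were all higher.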

How the data were processed

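5hmC was measured by CMS-IP in 8 pull-down and 8 input libraries of 4 groups of mouse CD4 T cells. The deposited table holds whole-number read counts per library in 177720 regions on mm9, which per the file headers are merged MACS2 broad peaks (q 0.01), each with its nearest transcript, the gene parts a region overlaps and the nearest start. The submitters' processing notes name MACS2 2.1.0.20151222, SAMtools 1.7, Trim Galore 0.4.2 and bcl2fastq 2.20.0.442. Aligner, counting tool and pooling for peak calls: not given in the sources used here. Regions called mostly in deeper libraries would include fewer regions particular to iTreg.

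Counts were summed per gene, and per gene and part, with a region going to the first of start (promoter or 5′ UTR), 3′ UTR, exon, intron and outside that it overlaps. One fit of all 8 pull-downs was made in edgeR 4.0.16 (R 4.3.3) with TMM factors, filterByExpr (minimum count 10), the quasi-likelihood F test on 4 residual degrees of freedom, and Benjamini-Hochberg adjustment over all 14951 genes, 40246 parts or 135412 regions tested, at 0.05. Adjusted p-values without another name come from edgeR. CPM of pull-downs use TMM-scaled library sizes and those of inputs plain reads in regions. The fit was tested on simulated data.

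The genes, roles and further lists were chosen with earlier results of these data known. Values in every library are given, per comparison, for the 3 highest and 3 lowest called genes whose mean reached 100 reads, and for the inhibitors and Myc. Ccna2, Mki67, Top2a and the regions of Pcna were added after their values were seen, as were regions other than those with the most reads or the lowest p. Alternatives were DESeq2 1.42.0, its size factors in edgeR, library size scaling, no filter, a mean of at least 50 reads, thinning to 1648804 reads, inputs subtracted in a fit of all 16 libraries, a replicate block, leaving out each pull-down, regions on the transcript, and regions on a single gene part. Replicate chi-square over degrees of freedom was 1.12 to 1.23. Intervals and floors cover counting error only, since PCR reads are not independent molecules.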

Additional observations from a re-analysis of the deposited data

How the results depend on the processing

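Counts of called genes, parts and regions kept within 1.5 times of the reported ones under every alternative run, except the following. Called genes numbered 6 with DESeq2, 7 after thinning to equal depth and 5 with inputs subtracted in Treg against naive cells, in place of 13. With inputs subtracted they numbered 9 in place of 15 for TGFβ iTreg, 16 in place of 25 with RA+VitC, and 3 in place of 10 between both. Called regions numbered 21 with DESeq2 and 14 after thinning in Treg (75), 42 after thinning for TGFβ iTreg (74), 74 with DESeq2 and 47 after thinning for RA+VitC iTreg (132), and 9 with DESeq2 between the iTreg groups (18). Called parts numbered 11 with DESeq2, 10 after thinning and 15 over regions on a single gene part in Treg (26), 20 with DESeq2 and 18 over such regions for TGFβ iTreg (32), 38 after thinning and 32 over such regions in RA+VitC iTreg (62), and 7 over such regions between the iTreg groups (14). Leaving out 1 library gave, in the order Treg, TGFβ iTreg, RA+VitC iTreg and then between the iTreg groups, 8 to 15, 10 to 16, 22 to 27 and 6 to 12 genes, 42 to 76, 42 to 74, 88 to 134 and 7 to 18 regions, and 16 to 27, 19 to 34, 45 to 64 and 7 to 15 parts. Over 8442 genes the deviations of same-numbered libraries correlated at -0.0017 between naive cells and Treg and at 0.014 between the iTreg groups. Replicates differed by little more than counting error, so these values cannot show whether the libraries were paired. The titles of both iTreg groups carry the same labels for their replicates, and the meaning of these labels is not stated. With the replicate block 14, 15, 26 and 11 genes were called, 69, 71, 128 and 16 regions, and 26, 32, 60 and 13 parts. Of 578 alternative values for 34 single-gene results, 515 kept direction and side of the threshold, 43 lost the call, 7 gained it and 13 turned sign. The latter were Cdkn1b in Treg, whose value was 0.00 (-0.0032 with DESeq2, -0.14 on the transcript, -0.063 with inputs subtracted and -0.11 to 0.093 leaving out 1 library), Cdkn2c in Treg (-0.13 with inputs subtracted), Myc on the transcript in Treg (-0.24) and in TGFβ iTreg (-0.24), Myc in TGFβ iTreg without replicate 2 of that group (-0.043, the range without 1 library reaching 0.21), and Cdk2 with inputs subtracted in TGFβ iTreg (0.12) and between the iTreg groups (-0.033). The 7 gains were all of Cdkn1b between the iTreg groups. The causes were not tested, apart from thinning and leaving out libraries, which reduce reads by construction. The TGFβ iTreg pull-downs were the shallowest, which limits what can be called in them.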
